A study of Saccharomyces cerevisiae with 18 samples.

Results

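HSP12, GRE1, SIP18, STF2, DDR2 and DDR48 encode 4 hydrophilins and 2 small stress proteins of Saccharomyces cerevisiae, and their mRNA levels are described here in 6 strains. The genes were picked by symbol, 6 of 5449 genes measured, and each had 1 probe set on the array. They were picked after values of these same arrays had been seen, so their levels and differences are given as a description, and the calls that a fit over all genes made for them are printed beside its calls for all genes, with nothing read from them. Total RNA from 18 bioreactor cultures, 3 for each strain, was hybridised to Affymetrix Yeast Genome arrays. All strains derive from the ura3-52 laboratory strain CEN.PK 113-5D, and all carry a multicopy plasmid with the URA3 marker. In the dI, dA and dN strains HAC1 was replaced by kanMX; dI carries the plasmid for an insulin precursor, dA the plasmid for an alpha-amylase, and dN the empty vector p426GPD. WI, WA and WN carry the same plasmids with HAC1 intact. Both proteins were expressed from the strong constitutive TDH3 (GPD) promoter and led into the secretory pathway by the same leader. The transcription factor made from HAC1 turns on the unfolded protein response of the endoplasmic reticulum. The design asks what making each protein does to the yeast with and without that response.

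Hydrophilins are very hydrophilic, glycine-rich proteins that stay largely unfolded in water and share this character with the plant proteins of late embryogenesis. They are known for protecting membranes and enzymes when cells lose water. Many of their genes, and those of other small stress proteins, carry stress response elements in their promoters, which the factors Msn2 and Msn4 bind when protein kinase A activity is low, under heat, salt, oxidants or slow growth.

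The 6 genes fell into several patterns over the strains. HSP12 and DDR2 were higher with either secreted protein than with the empty vector, in both backgrounds, and were highest in dI. GRE1 and SIP18, which lay near the background of the array, were higher with the insulin precursor than with the empty vector, while with alpha-amylase they overlapped the empty vector over all arrays. Once dN replicate 3 was left out, the dA arrays of GRE1 and SIP18 lay under both remaining dN arrays, and so did those of DDR48. The differences were then -0.28 (SE 0.18) for GRE1, -0.18 (SE 0.14) for SIP18 and -0.41 (SE 0.17) for DDR48. The fit called none of them, and how many of all genes had that order of arrays was not counted. STF2 was lower in all 3 deletion strains than in all 3 HAC1 strains, whichever plasmid they carried. DDR48 had the narrowest span of strain means, though its 3 dN arrays were spread widely (SD 1.05). It was lowest in dN over all arrays and in dA without dN replicate 3.

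Values are log2 signals as deposited, so a difference of 1 is a doubling, and a level is compared only with the same gene in another strain. HAC1 itself read 1.08 to 1.75 in the 9 deletion arrays, against 10.54 to 10.96 in the 9 arrays with HAC1. The background level of an array was taken as the 95th percentile of 5430 probe sets not paired with a gene of S. cerevisiae, 4.38 to 4.63. Many of these probe sets are unnamed rather than empty. A lower level, the 99th percentile of 1746 probe sets named after a gene of another species, lay at 1.78 to 2.05. The array of dN replicate 3 stood apart, with a residual SD over all genes of 0.36, against 0.08 to 0.25 in the other 17 arrays, and each result that rests on it is also given without it. The labels of WN replicate 1 describe another way of breaking the cells than those of the other 17 arrays, and the label of dN replicate 1 carries no number.

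HSP12, on chromosome VI (YFL014W), encodes a membrane-binding hydrophilin that folds into helices on lipid and is among the yeast genes most strongly switched on by heat, salt and entry into stationary phase. Its log2 signal was 11.81, 11.66 and 11.97 in the dI arrays and 11.39, 11.36 and 11.35 in the dA arrays, against 10.23, 10.73 and 9.68 in the dN arrays. All arrays of both producing strains lay above all 3 dN arrays. With HAC1 intact it was 11.30, 11.30 and 11.15 in WI and 12.05, 11.66 and 11.61 in WA, against 10.62, 10.70 and 10.62 in WN, again with no overlap between a producing strain and the empty vector. The difference dI against dN was 1.60 (SE 0.19), or 3.04-fold, and 1.34 (SE 0.14) without dN replicate 3. The difference dA against dN was 1.16 (SE 0.19), and 0.89 (SE 0.14) without that array. In HAC1 cells the insulin precursor strain was 0.60 higher and the amylase strain 1.12 higher than WN (SE 0.19 each). The order of the proteins thus turned over with the background: WA was 0.52 above WI, while dA against dI was -0.45 (SE 0.19 each). From low to high the strains ran dN, WN, WI, dA, WA, dI, and the arrays overlapped between dN and WN and between WA and dI, but not between the other neighbours in that order.

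GRE1 and SIP18 are a pair of hydrophilin genes that arose by duplication of the genome and are known to be induced by salt stress and drying. GRE1 lies on chromosome XVI (YPL223C) and SIP18 on chromosome XIII (YMR175W). GRE1 read 5.83, 5.71 and 6.05 in dI and 4.18, 4.32 and 4.42 in dA, against 4.43, 4.75 and 3.36 in dN. All dI arrays lay above all dN arrays, and the dA arrays lay within the dN range. Without dN replicate 3 all dA arrays lay below both dN arrays. With HAC1 it read 5.12, 5.48 and 5.44 in WI and 5.29, 4.75 and 4.62 in WA, against 4.47, 4.86 and 4.62 in WN. The WI arrays stood above the WN arrays, and the WA arrays overlapped them. GRE1 exceeded the background level in 13 of 18 arrays, namely in all arrays of dI, WI, WA and WN and in 1 of 3 of dN, but in none of dA. It exceeded the lower level in 18 of 18.

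The insulin precursor difference of GRE1 was 1.68 (SE 0.27), or 3.21-fold, for dI against dN, 1.27 (SE 0.18) without dN replicate 3, and 0.70 (SE 0.27) for WI against WN. The amylase differences were 0.13 for dA against dN and 0.24 for WA against WN (SE 0.27 each), and dA against dN was -0.28 (SE 0.18) once dN replicate 3 was left out. WA replicate 1 was the highest of its strain, and without it the WA mean was 4.68, beside 4.65 ± 0.19 in WN (SD, n = 3), a difference of 0.03. Between the deletion strains, dA against dI was -1.56 (SE 0.27), and since all dA arrays were at background this stands as at least 2.61-fold lower. From low to high the strains ran dN, dA, WN, WA, WI, dI, and only the steps from dA to WN and from WI to dI had arrays that did not overlap. Without dN replicate 3 the dN mean of GRE1 was 4.59, above the 4.30 of dA.

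SIP18, whose product binds phospholipid, read 5.19, 4.90 and 5.38 in dI and 3.78, 3.75 and 3.80 in dA, against 3.82, 4.08 and 3.06 in dN. Here too all dA arrays lay below dN once dN replicate 3 was left out, at -0.18 (SE 0.14), against 0.12 (SE 0.20) with it, and both strains were at background. The values with HAC1 were 4.99, 5.15 and 4.98 in WI and 4.52, 4.11 and 4.02 in WA, against 4.35, 4.36 and 4.49 in WN. Only the 2 insulin precursor strains had all 3 arrays above the background level, and 1 WA array was the sole other one above it, 7 of 18 in all. All 18 exceeded the lower level. SIP18 was thus at least 1.57-fold higher in dI than in dN, at least 1.50-fold without dN replicate 3, and at least 1.49-fold higher in WI than in WN. The measured differences were 1.50 (SE 0.20) and 0.64 (SE 0.20). In dA, where all arrays were under background, SIP18 was at least 1.60-fold lower than in dI. Between dN and WN, where both strains lay under the background level, no fold is given. From low to high the strains ran dN, dA, WA, WN, WI, dI, and arrays did not overlap between dA and WA or between WN and WI. Without dN replicate 3 the dN mean of SIP18 was 3.95, above the 3.78 of dA.

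**Figure D1:**
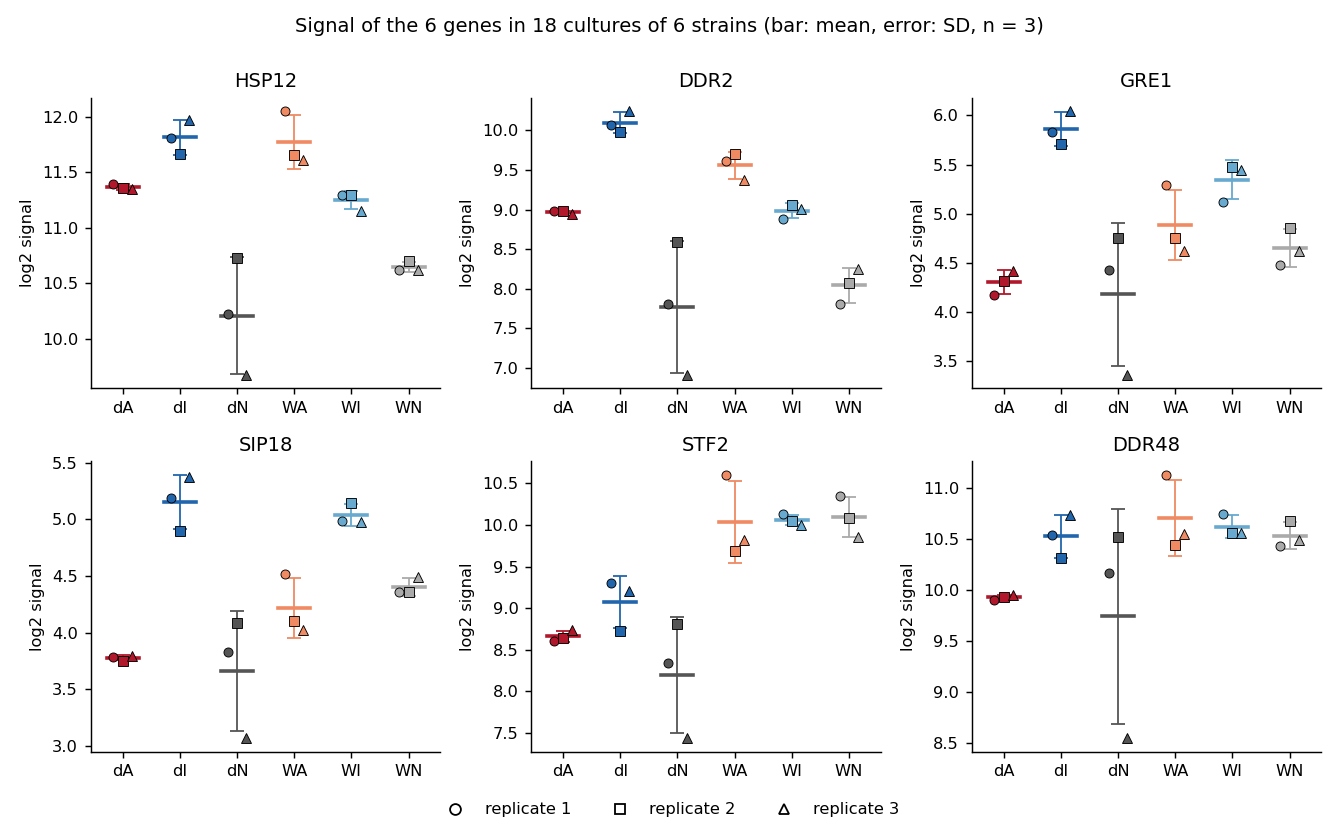
Log2 signal of each of the 6 genes (1 panel each, y axis in log2 units) in the 3 arrays of the dA, dI, dN, WA, WI and WN strains (x axis), with a point for each array, a bar for the strain mean and an error bar of 1 SD (n = 3). The HSP12 and DDR2 points of dI and dA lie above those of dN, and the STF2 points of the 3 deletion strains all lie under those of the 3 HAC1 strains.

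STF2, on chromosome VII (YGR008C), encodes a hydrophilin first known as a factor that steadies the inhibitor on the mitochondrial ATP synthase, and later for its part in survival of drying. It read 9.31, 8.72 and 9.21 in dI, 8.61, 8.65 and 8.73 in dA and 8.34, 8.81 and 7.43 in dN. With HAC1 it read 10.13, 10.05 and 10.00 in WI, 10.61, 9.69 and 9.82 in WA and 10.35, 10.08 and 9.86 in WN. The highest deletion array lay under the lowest HAC1 array, so the 9 and the 9 did not overlap. How many of all genes were split in this way was not counted. In single pairs, arrays lay lower with no overlap for 15.9% of all genes in dN against WN. The share was 18.8% in dI against WI and 23.9% in dA against WA. The deletion difference was -1.90 (SE 0.29), or 3.73-fold, for dN against WN and -1.52 (SE 0.23) without dN replicate 3. It was -0.98 for dI against WI and -1.38 for dA against WA (SE 0.29 each). Within HAC1 cells STF2 was at -0.04 for WI against WN and -0.06 for WA against WN (SE 0.29 each), with overlapping arrays, and at -0.34 for WA against WN without WA replicate 1. In deletion cells dI was 0.88 (SE 0.29) above dN, 0.50 (SE 0.23) without dN replicate 3, and the arrays overlapped. The strains ran dN, dA, dI, WA, WI, WN from low to high, and the step from dI to WA was the one with no overlap.

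The mRNAs of inhibitors of the same enzyme, INH1 and STF1, differed less than that of STF2 between dN and WN. INH1, the ATP synthase inhibitor, averaged 9.93 ± 0.03 in dN and 9.91 ± 0.06 in WN, and STF1, a second inhibitor, averaged 8.33 ± 0.45 in dN and 8.56 ± 0.09 in WN (SD, n = 3 each). Neither passed an adjusted p of 0.05 in limma in any of the 9 pairs of strains. STF1 was 0.50 higher in dI and 0.45 higher in dA than in dN (SE 0.16 each). Without dN replicate 3 these differences were 0.25 and 0.20 (SE 0.11 each). TMA10, the duplicate partner of STF2, read 7.75, 7.95 and 6.09 in dN, against 7.06, 7.07 and 7.10 in WN. Its difference was 0.19 over all arrays and 0.77 without dN replicate 3 (adjusted p = 0.00485, limma), where STF2 was at -1.52.

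DDR2, on chromosome XV (YOL052C-A), encodes a very small protein found as a response to DNA damage and known to be induced by many other stresses through stress response elements. Its log2 signal was 10.07, 9.98 and 10.25 in dI and 8.98, 8.98 and 8.95 in dA, against 7.81, 8.59 and 6.92 in dN. With HAC1 it was 8.88, 9.06 and 9.01 in WI and 9.61, 9.70 and 9.37 in WA, against 7.81, 8.07 and 8.25 in WN. As for HSP12, every array of a producing strain lay above every empty-vector array of its background. The difference dI against dN, 2.33 (SE 0.27) or 5.01-fold, was the widest that any of the 6 genes showed between 2 strains, and it was 1.90 (SE 0.18) without dN replicate 3. The difference dA against dN was 1.20 (SE 0.27), and 0.77 (SE 0.18) without that array. With HAC1 the differences were 0.94 for WI against WN and 1.52 for WA against WN (SE 0.27 each).

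DDR2 thus also had its proteins in opposite order in the 2 backgrounds, with 0.58 for WA against WI and -1.13 for dA against dI (SE 0.27 each). Set against the HAC1 strain with the same plasmid, dI was at 1.12 and dA at -0.59. Without a secreted protein, dN against WN differed by -0.27 (SE 0.27), and by 0.15 (SE 0.18) without dN replicate 3. The strains ran dN, WN, dA, WI, WA, dI, and overlaps were seen between dN and WN and between dA and WI. Without dN replicate 3 the dN mean of DDR2 was 8.20, above the 8.04 of WN. HOR7, the duplicate partner of DDR2, averaged 12.12 ± 0.04 in dI and 11.76 ± 0.50 in dN (SD, n = 3 each) and passed in none of the 9 pairs in limma over all arrays. Without dN replicate 3 it rose by 0.25 in WA against WN (adjusted p = 0.0236, limma) and by 0.20 in dI against WI (adjusted p = 0.0291, limma), and fell by 0.20 in dA against WA (adjusted p = 0.0241, limma), where DDR2 was at 1.52, 1.12 and -0.59.

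DDR48, on chromosome XIII (YMR173W), encodes a protein of asparagine- and serine-rich repeats, also found through DNA damage and heat. It read 10.53, 10.31 and 10.73 in dI and 9.90, 9.93 and 9.95 in dA, against 10.17, 10.51 and 8.54 in dN. With HAC1 it read 10.74, 10.55 and 10.56 in WI and 11.13, 10.44 and 10.55 in WA, against 10.43, 10.68 and 10.48 in WN. The 3 dA arrays lay close together and under all arrays of the other strains except dN replicate 3. The difference dA against WA was -0.78 (SE 0.34), or 1.71-fold lower, and -0.57 without WA replicate 1. The difference dN against WN, -0.79 (SE 0.34), rested on dN replicate 3 and was -0.19 (SE 0.17) without it, and likewise dI against dN was 0.78 (SE 0.34) with it and 0.18 (SE 0.17) without. Over all arrays the span between the lowest and the highest strain mean was 0.96 for DDR48. The other 5 genes each had a wider span, 1.50 to 2.33.

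**Figure D2:**
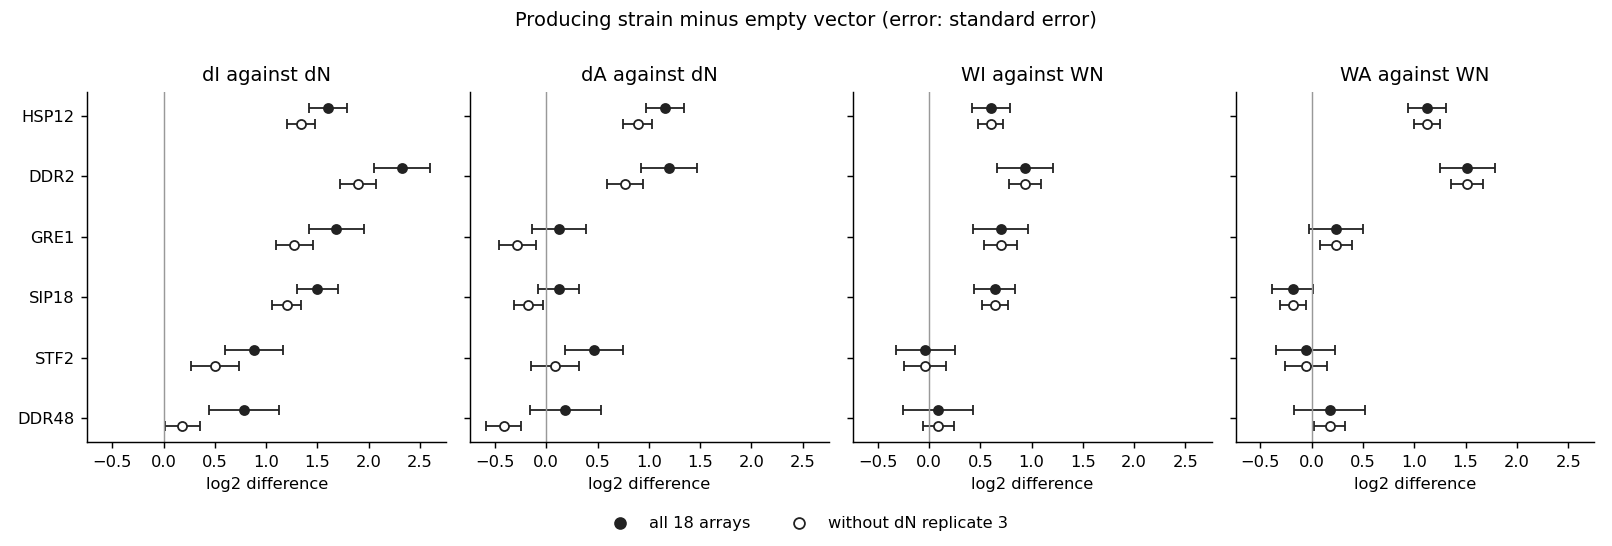
Log2 differences (x axis) of the 6 genes (rows) for dI and dA against dN and for WI and WA against WN, with bars of 1 SE from the fit, over all arrays (filled) and without dN replicate 3 (open). HSP12 and DDR2 lie above 0 in all 4 pairs, GRE1 and SIP18 in the insulin precursor pairs, and STF2 lies at -0.06 and -0.04 in the HAC1 pairs.

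The counts of members past the threshold stand here beside those of all genes, and nothing is read from them since the same differences chose the genes. Higher in limma at an adjusted p under 0.05 were HSP12, GRE1, SIP18 and DDR2 for dI against dN, where 7.05% of all genes were higher, and HSP12 and DDR2 for dA against dN, where 5.91% were. For WA against WN they were HSP12 and DDR2, beside 3.25% of all genes. For WI against WN it was none of the 6, beside 0.275% of all genes, though 4 had an unadjusted p under 0.05, as did 6.13% of all genes. Leaving out dN replicate 3, which enters the spread that all pairs share, HSP12, SIP18 and DDR2 also passed for WI against WN, beside 0.954% of all genes. In the other production pairs the same members passed with and without that array, beside 5.74% of all genes for WA against WN, 8.7% for dI against dN and 10.9% for dA against dN. Counted by arrays that did not overlap, 4 members were higher in dI than in dN (11.5% of all genes), 2 in dA than in dN (10.5%), 4 in WI than in WN (6.0%) and 2 in WA than in WN (12.0%).

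For the deletion, SIP18 and STF2 passed as lower in dN than in WN, beside 12.0% of all genes (11.0% without dN replicate 3), and their arrays did not overlap, as for 15.9% of all genes. In dI against WI STF2 passed as lower, beside 10.8% (13.7% without that array), and HSP12 and DDR2 as higher, beside 9.47%. GRE1 joined them without that array, beside 16.3%. By arrays that did not overlap, 3 members were higher there (27.2% of all genes) and 1 lower (18.8%). In dA against WA STF2 passed as lower, beside 13.6% of all genes, and all 6 passed as lower once dN replicate 3 was left out, beside 18.4%. In that pair the arrays of all 6 members lay lower in dA with no overlap, as did those of 23.9% of all genes. The median difference of the 6 was -0.59 in dA against WA, beside 0.01 over all genes, and 0.31 in dI against WI, beside 0.04. Without WA replicate 1 dA against WA was -0.27 for HSP12, -0.38 for GRE1, -0.29 for SIP18, -1.09 for STF2 and -0.57 for DDR2 and DDR48. The dA arrays of GRE1 and SIP18 were all at background. HSP12, GRE1 and DDR2 were higher in dI than in WI and lower in dA than in WA, each with no overlap, an arrangement that 2.17% of all genes had.

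**Figure D3:**
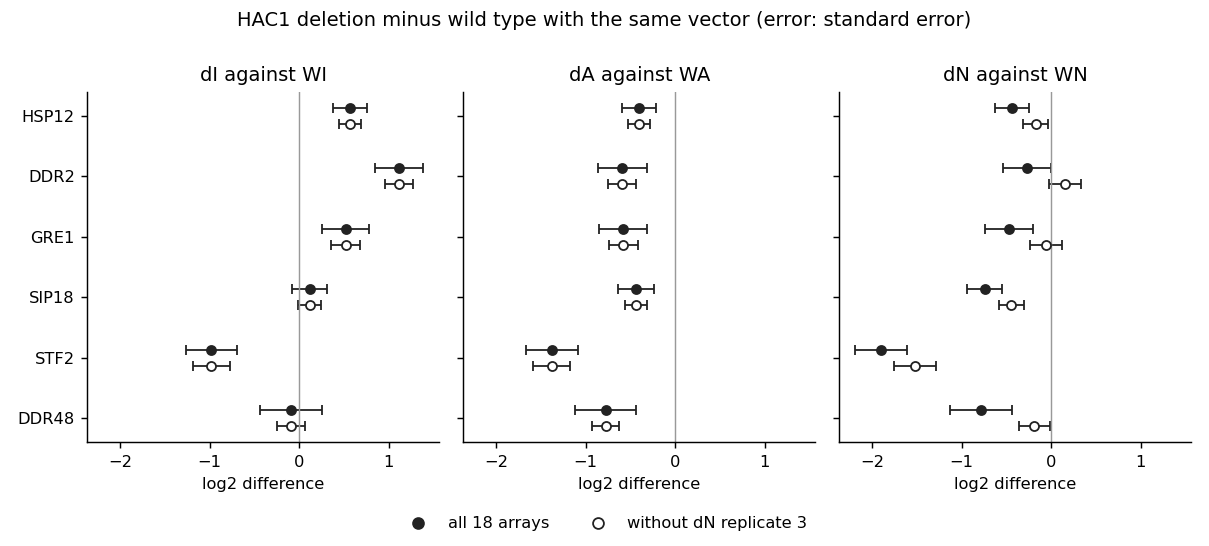
Log2 differences (x axis) of the 6 genes (rows) between deletion and HAC1 strains with the same plasmid (dI against WI, dA against WA, dN against WN), with bars of 1 SE, over all arrays (filled) and without dN replicate 3 (open). STF2 lies below 0 in all 3 pairs, and all 6 genes lie below 0 for dA against WA.

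The secreted proteins were also set against each other in each background. GRE1 and SIP18 passed as lower in dA than in dI, beside 0.716% of all genes, and without dN replicate 3 HSP12, DDR2 and DDR48 did too, beside 4.53%. The arrays of those 5 did not overlap, as for 16.4% of all genes. No member passed in WA against WI over all arrays, beside 0.0918% of all genes lower, though 3 had an unadjusted p under 0.05, as did 7.34% of all genes. The arrays of 2 members were higher in WA than in WI without overlap (10.5% of all genes) and those of SIP18 lower (5.84%). SIP18 was at -0.82 (SE 0.20) for WA against WI, and it passed there without dN replicate 3, beside 0.294%. The test of whether a protein's effect differed between the backgrounds called none of the 6 for either protein in limma, beside 0.716% of all genes for the insulin precursor and 1.34% for alpha-amylase. For the insulin precursor 5 of the 6 had an unadjusted p under 0.05, beside 11.1% of all genes, and for alpha-amylase none had, beside 13.1%. Without dN replicate 3 it was 4 for the insulin precursor, beside 12.8%, and 3 for alpha-amylase, beside 21.8%, and the median of the 6 alpha-amylase values was -0.38, against 0.02 over all arrays.

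Within strains, the 6 genes often deviated together. dN replicate 3 lay below both other dN arrays in all 6, at -0.80 for HSP12 down to -1.80 for DDR48 relative to the mean of the other 2, and dN replicate 2 lay above both others in all 6. WA replicate 1 lay above both other WA arrays in 5 of 6, the exception being DDR2, and dI replicate 2 lay below both other dI arrays in all 6. The 42 genes of a general stress list moved the same way in part. In dN replicate 3, 36 of 42 lay below both other dN arrays with a median of -0.69 against their mean, and in WA replicate 1 the median was 0.25. In dN replicate 2, 30 of 42 lay above both others, with a median of 0.50. In dI replicate 2 the list did not move with the members, with a median of 0.01, 16 of 42 below both others and 17 above. Whether handling of the cultures had a part in these shared deviations was not tested. The dA arrays were close together, with SDs of 0.02 for HSP12, SIP18, DDR2 and DDR48, 0.06 for STF2 and 0.12 for GRE1.

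**Figure D4:**
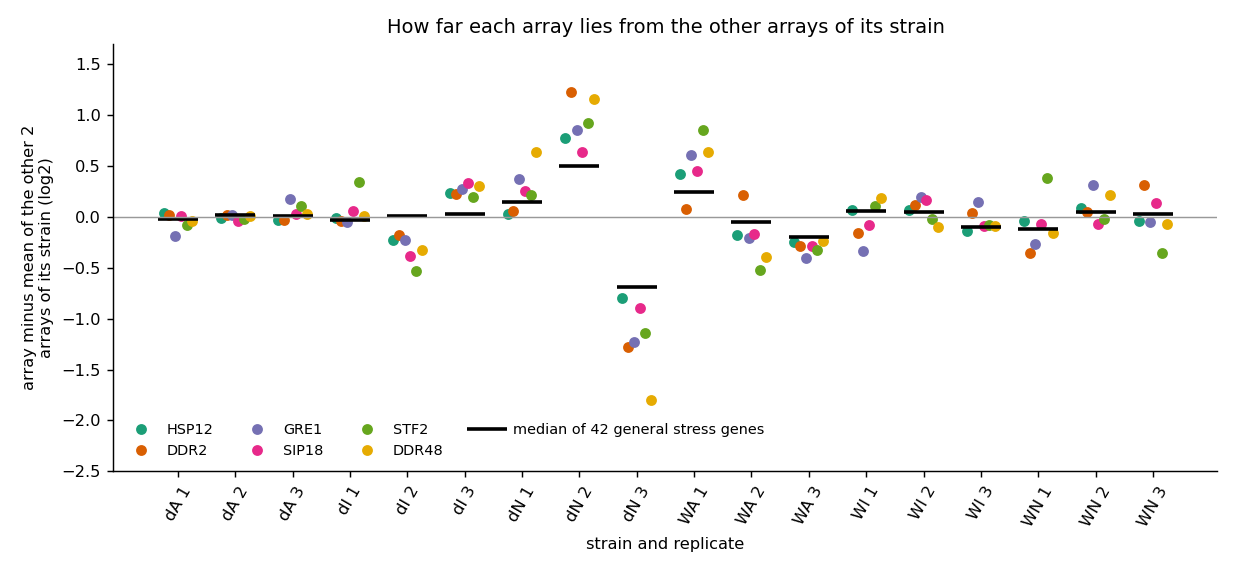
Deviation of each array from the mean of the other 2 arrays of its strain (y axis, log2 units) for the 6 genes, by strain and replicate (x axis), with a black dash for the median of the 42 general stress genes. dN replicate 3 lies between -0.80 and -1.80 for every gene.

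Among themselves the members were compared by the distance between their strain means, each gene centred on its own mean over the 6 strains, as a root mean square in log2 units. GRE1 and SIP18, the duplicate pair, were nearest at 0.17, and HSP12 and DDR2 followed at 0.28. STF2 and DDR2 were farthest at 0.97. Other genes were then searched, with the 6 members left out. Only genes above background in the mean of all arrays were taken, 4948 when members above it are counted. The nearest to HSP12 were GPG1 at 0.09, TSL1 at 0.09 and BDH2 at 0.10. TSL1 encodes a subunit of the trehalose synthase complex. Nearest to GRE1 were HXT5, a glucose transporter gene of slow growth, at 0.32, the aldehyde dehydrogenase gene ALD3 at 0.33 and YAR010C at 0.34. Nearest to SIP18 were EGO4 at 0.32, ALD3 at 0.34 and CDA1 at 0.35. STF2 had YOR289W at 0.11 and then AMS1, the vacuolar mannosidase gene, and the proteinase inhibitor gene PBI2 at 0.16 each. DDR2 had MOH1 and GPG1 at 0.20 and MDH2 at 0.24, and DDR48 had GND2, of the pentose phosphate pathway, at 0.09 and YER079W and YBL029C-A at 0.11. Part of these names depended on dN replicate 3. Without it the 3 genes of HSP12 were the same, while STF2 had PBI2 at 0.12 and SEC59 and PMI40 at 0.14, DDR2 had PUT4 at 0.17, MAL32 at 0.18 and GPG1 at 0.23, and DDR48 had YDL085C-A, JHD2 and PLB3 at 0.07. GRE1 then had ALD3 at 0.31, YAR010C at 0.34 and SRD1 at 0.35, and SIP18 had EGO4 at 0.32, ALD3 at 0.33 and CUP1-1 at 0.34. These distances rest on 6 strain means each and describe likeness only.

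The wider general stress response was taken from 42 genes known as targets of Msn2 and Msn4, other than the 6. In dI against dN 34 of the 42 rose and none fell in limma, with a median of 0.97, beside -0.02 over all genes, and in dA against dN 30 rose and none fell, with a median of 0.80. In WA against WN 20 rose and in WI against WN 6 rose, and none fell. Of all genes, 7.05% rose in dI against dN, 5.91% in dA against dN, 3.25% in WA against WN and 0.275% in WI against WN. Without dN replicate 3 it was 32 that rose in dI against dN (median 0.73), 28 that rose and 2 that fell in dA against dN (median 0.59), 30 that rose in WA against WN and 16 in WI against WN. The shares of all genes that rose were then 8.7%, 10.9%, 5.74% and 0.954% in these pairs. In dA against dN 748 of 5449 genes then fell. SOL4, of the pentose phosphate pathway, rose by 2.24 in dI against dN (adjusted p = 5.58e-09, limma) and by 2.09 in dA against dN (adjusted p = 2.06e-08, limma). GPH1, glycogen phosphorylase, rose by 2.42 in dA against dN (adjusted p = 3.94e-08, limma), and HSP26, a small heat shock protein gene, rose by 1.23 in WI against WN (adjusted p = 0.00299, limma). The list did not follow STF2 in the deletion. In dA against WA 7 rose and 4 fell, with a median of 0.00, against -1.38 for STF2. In dI against WI 12 rose and 1 fell, with a median of 0.32, against -0.98 for STF2, and 25 rose and 1 fell without dN replicate 3. In dN against WN 1 rose and 9 fell, with a median of -0.25. Without dN replicate 3, 4 rose and 7 fell in dN against WN, with a median of -0.05. Over all 5449 genes, 523 rose and 739 fell in dA against WA. In dI against WI 516 rose and 587 fell, or 888 and 746 without dN replicate 3. In dN against WN 517 rose and 653 fell, or 548 and 599 without dN replicate 3.

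**Figure D5:**
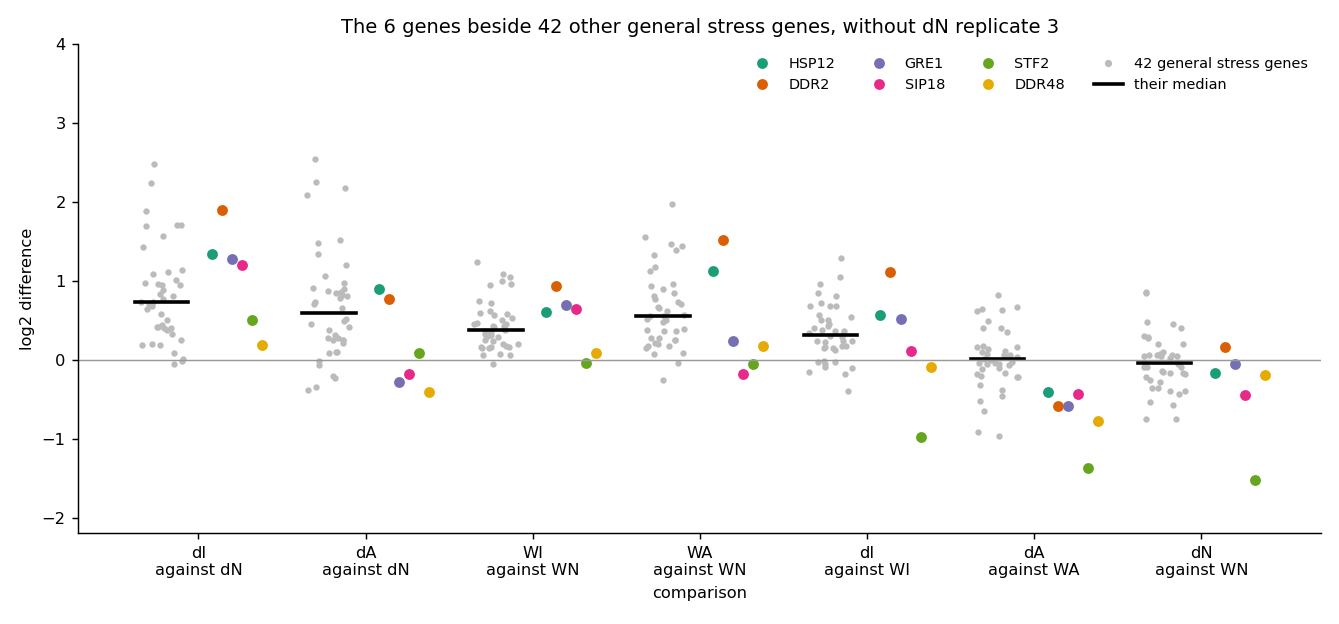
Log2 differences (y axis) of the 42 general stress genes (grey points, black line at their median) and of the 6 members (coloured points) for 7 pairs of strains (x axis), without dN replicate 3. The grey points centre on 0.73 in dI against dN and on 0.00 in dA against WA, where all 6 members lie below 0.

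Genes of osmotic adaptation, whose induction runs through the kinase Hog1, differed from that list in dA. Of 7 measured, HOR7 among them, 2 fell and none rose in dA against WA over all arrays, and all 7 fell without dN replicate 3, with a median of -0.66. Of all genes, 13.6% fell in that pair, and 18.4% without dN replicate 3. The glycerol phosphatase gene GPP1 fell by 0.66 (adjusted p = 0.000304, limma) and GRE2, a reductase gene induced by salt, fell by 1.04 (adjusted p = 0.00165, limma), both over all arrays. Of 17 genes for regulators, MSN4 rose by 0.57 in WA against WN (adjusted p = 0.0055, limma), by 0.52 in dI against dN (adjusted p = 0.00479) and by 0.60 in dA against dN (adjusted p = 0.00207). With the deletion, regulators of the 17 went both ways. In dA against WA none rose and 4 fell, among them HSF1 by 0.41 (adjusted p = 0.000719, limma), MSN2 by 0.35 (adjusted p = 0.00191, limma) and HOG1 by 0.36 (adjusted p = 0.00781, limma). In dN against WN 1 rose and 3 fell, HSF1 by 0.40 (adjusted p = 0.000922, limma), and 3 rose and 1 fell without dN replicate 3. In dI against WI 4 rose, namely PDE2, GIS1, SKO1 and YAP1, and 3 fell. Without that array 8 rose and 3 fell in dI against WI, and 2 rose and 5 fell in dA against WA. Of all genes, 13.6% fell in dA against WA, 12.0% in dN against WN and 10.8% in dI against WI, where 9.47% rose. The lists were chosen with earlier values of these arrays known, and the counts are no independent evidence of their direction.

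Genes that lie next to the members on the chromosome were looked at for comparison, 10 in all. Over all arrays 2 of the 10 passed in dI against dN and in dA against WA, 1 in dA against dN, dN against WN and dI against WI, and none in WI against WN or WA against WN. Of all 5449 genes, 384 rose and 315 fell in dI against dN, and 523 rose and 739 fell in dA against WA. The counts were 322 and 319 in dA against dN, 517 and 653 in dN against WN, and 516 and 587 in dI against WI. They were 15 and 1 in WI against WN, and 177 and 84 in WA against WN. Nothing is read from the counts of the neighbours. PAI3, the proteinase A inhibitor gene, lies between DDR48 and SIP18 on chromosome XIII and is also 1 of the 42 general stress genes. It was 0.61 higher in dI than in dN (adjusted p = 0.0348, limma), and 0.38 (adjusted p = 0.0900, limma) without dN replicate 3. FMP40, beside GRE1, was 0.40 higher in dI than in dN (adjusted p = 0.0341, limma), and neither passed there without that array. SEC9, beside STF2, encodes a t-SNARE of exocytosis and fell by 0.34 in dN against WN and by 0.43 in dA against WA (adjusted p = 0.00754 and 0.00126, limma), against -1.90 and -1.38 for STF2. AIM39, beside DDR2, rose by 0.47 in dA against WA (adjusted p = 0.000195, limma), where DDR2 was at -0.59, and by 0.33 in dI against WI and 0.27 in dA against dN (adjusted p = 0.00454 and 0.0239, limma).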

How the data were processed

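The authors deposited 1 log2 value per probe set and array, made from perfect-match probes with RMA background correction, qspline normalization between arrays and median polish. They were used as deposited. Of 10928 probe sets, 5498 belonged to 5449 genes of S. cerevisiae; for 47 genes with several, the probe set with the highest mean was taken. Limma 3.58.1 in R 4.3.3 fitted a mean for each of the 6 strains to all 18 arrays (12 residual degrees of freedom), and p-values were adjusted by Benjamini-Hochberg over 5449 genes with a threshold of 0.05. A fold against a strain whose arrays all lay under the background level is a lower bound. SEs come from that fit. The fit was tested on simulated data. The members and gene lists were chosen with earlier results of these data known. Named were all 6 members, the duplicate partners, the ATP synthase inhibitors, the 3 genes nearest each member in pattern and, from the up to 4 listed genes with the smallest adjusted p per pair, some chosen after their values were seen, as were the neighbours. Replicates were separate bioreactor cultures. Arrays were scaled to each other, so a change in total mRNA per cell is not seen, and 3 arrays a strain limit the precision. Alternatives were another normalization, array weights, a filter on dim genes, a stricter threshold, only the strains compared, a replicate block and leaving out each array. The replicate numbers did not pair the samples. Promoter and protein sequences were not analysed here.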

Additional observations from a re-analysis of the deposited data

Results flagged for a closer look

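HSP12, GRE1 and DDR2 differed in opposite directions between deletion and HAC1 strains according to the secreted protein: all 3 dI arrays lay above all 3 WI arrays, and all 3 dA arrays lay below all 3 WA arrays. The differences were 0.57 in dI against WI and -0.41 in dA against WA for HSP12 (SE 0.19 each), 0.97 apart. For GRE1 they were 0.52 and -0.58, 1.10 apart, and for DDR2 1.12 and -0.59, 1.71 apart (SE 0.27 for each of these differences from HAC1 strains). All dA arrays of GRE1 were at background, so its -0.58 stands as at least 1.32-fold lower. GRE1 passed in neither pair over all arrays. Over all genes, 118 of 5449 (2.17%) had this arrangement. For HSP12 and DDR2 the same arrays also give WA above WI and dA below dI, 0.97 apart for HSP12 (0.52 and -0.45) and 1.71 apart for DDR2 (0.58 and -1.13). Whether the 2 differences of a gene differ from each other was not tested, since the values had a part in the choice of the genes. The dN and WN arrays enter none of these differences, but they enter the shared spread behind the SEs and the calls. Without dN replicate 3 the SE of each difference was 0.12 for HSP12 and 0.16 for GRE1 and DDR2. GRE1 then passed in both dI against WI and dA against WA. Without WA replicate 1, dA against WA was -0.27 for HSP12, -0.38 for GRE1 and -0.57 for DDR2, and WA against WI was 0.38 for HSP12 and 0.55 for DDR2.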

How the results depend on the processing

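The counts of the 6 genes that passed depended on how the spread was estimated, and no called difference changed direction under an alternative. With array quality weights, which give dN replicate 3 little weight, 4 of 6 passed in WI against WN (0 over all arrays with equal weights), 4 in dN against WN (2), 6 in dA against WA (1), 4 in WA against WI (0), 6 in dA against dI (2) and 5 in the insulin precursor interaction (0). With only the strains compared in the fit, 3 passed in WI against WN, 1 in dI against dN (4), 0 in dA against dN (2), 1 in dN against WN, 6 in dA against WA and 5 in dA against dI. At a threshold of 0.01, 1 passed in dA against dN, in dN against WN and in dI against WI (3). Quantile normalization gave 1 in WA against WI. Leaving out each array in turn gave 0 to 3 in WI against WN (1 without dN replicate 2, 3 without dN replicate 3), 2 to 2 in WA against WN, 4 to 6 in dI against dN, 2 to 2 in dA against dN, 2 to 6 in dN against WN (6 without dN replicate 2), 1 to 4 in dI against WI (1 without any single WI array or without dI replicate 2), 1 to 6 in dA against WA (3 without dN replicate 2, 6 without dN replicate 3), 0 to 1 in WA against WI (1 without dN replicate 2 or 3), 1 to 5 in dA against dI (5 without dN replicate 3, 1 without dI replicate 3 or dA replicate 1), 0 to 3 in the insulin precursor interaction (3 without dN replicate 2) and 0 to 0 in the alpha-amylase interaction. The cause was not tested. A replicate block, with the unnumbered dN array left out, changed no count of the 6 beyond 1.5 times (4 in dI against dN); same-numbered arrays of different strains correlated at a mean r of 0.10 over 40 pairs (-0.56 to 0.68), which does not pair them. GRE1 and SIP18 near background are limited by signal, and the promoter motif search was not run.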
